A study of Mus with 15 samples.

Results

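Six2, Six3, Six4, Six5 and Six6 encode transcription factors of the sine oculis homeobox family, and these 5 genes were followed here through lists of chromatin regions that carry monoubiquitinated histone H2A (H2Aub, the mark written H2AK119ub in the labels). A gene window was the gene body plus 5 kb on each side, and every peak with at least 1 bp in a window was taken. The 5 genes were chosen by name from 21887 protein-coding genes, and their windows held 214 of the 278739 peaks in 11 lists.

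H2Aub was profiled by ChIPmentation (immunoprecipitation of sonicated chromatin with the sequencing adapters inserted by the Tn5 transposase on the beads) in microdissected thalami of mice aged 2 to 4 months, with 3 to 4 thalami pooled per library (per the labels; fewer may have been used, since the published methods allow a smaller pool). Mice were Maged1 WT or Maged1 cKO, in which Cre under the vGluT2 promoter deletes floxed Maged1, so that the gene is removed in glutamatergic neurons that use this promoter and other thalamic cells keep it. All mice first received saline for 3 days, and then 5 days of either cocaine (intraperitoneal, at 20 mg/kg) or saline. For WT mice there were 3 cocaine and 3 saline lists, for cKO mice 2 cocaine and 3 saline lists, and 4 input libraries were not analysed here. The study describes the replicates of a condition as independent biological ones, each a pool of thalami, so the p-values below measure the spread between pools.

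The proteins bind DNA through their homeodomain and work with Eya coactivators and Dach corepressors. Six3 and Six6 are known for patterning the anterior forebrain and the eye, Six2 for maintaining nephron progenitors in the kidney, Six4 for muscle and sensory development, and Six5 lies beside Dmpk, the kinase gene of the myotonic dystrophy locus. H2Aub is laid down by Polycomb repressive complex 1 and is known for covering developmental regulators that a tissue keeps silent, often as broad domains.

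The lists, named by group and replicate number (WT saline 3 is replicate 3 of WT saline), differed in ways that touch every value below. A list held between 7271 and 80713 peaks, which covered 4.24 to 27.6 Mb, and the number of reads behind each list is not known here, since the study states only a minimum for all samples. The replicates numbered 1 of cKO cocaine and cKO saline stood apart, with highest fold enrichments over input of 31.2 and 52.6 against 5.98 to 12.2 in the other 9 lists, and the group differences that involve them are also given without them. Since the lists hold no expression values, the tissue label could not be checked by expression. Of 6 marker genes of thalamic neurons, each had a peak in 7 to 11 lists, and the share of the window under peaks had a median of 61.8% at Gbx2 and of 3.77% at Lef1, 1.70% at Slc17a6, 1.17% at Prox1, 0.308% at Tcf7l2 and 0.0768% at Rora.

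Each of the 5 genes had an H2Aub peak in all 11 lists, as did 6.76% of the protein-coding genes. When every list was cut to its 7271 strongest peaks by −log10 p, as many as the shortest list held, Six2, Six3 and Six6 still had a peak in all 11, whereas Six5 had one in 8 and Six4 in 6. The covered length, which is the number of bases of the window under peaks, separated the family into broadly and narrowly marked members. Broadly marked members were Six3, with a median over the 11 lists of 67.6% of the window under peaks (range 42.4 to 83.8%), Six6 with 61.2% (38.7 to 82.9%) and Six2 with 40.5% (32.2 to 46.1%). Narrowly marked members were Six5, with 12.0% (1.19 to 37.7%), and Six4, with 3.53% (0.782 to 9.72%). The ranges of Six3 and Six6 overlapped over most of their length, Six2 overlapped both of them, and the range of Six4 ended below the lowest list of Six2. The range of Six5 reached that of Six2 only through the cKO replicates 1. Without these 2 lists it was 1.19 to 26.2% at Six5 (median 11.9%), 0.782 to 7.10% at Six4 and 45.9 to 82.9% at Six6, while the ranges at Six2 and Six3 stayed the same. Over all protein-coding genes the median was 0%, and 14474 genes had a peak in at least 1 list. All 5 medians therefore stood high among coding genes, at the 99.6th percentile for Six3, 99.5 for Six6, 99.2 for Six2, 97.6 for Six5 and 93.3 for Six4.

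**Figure D1:**
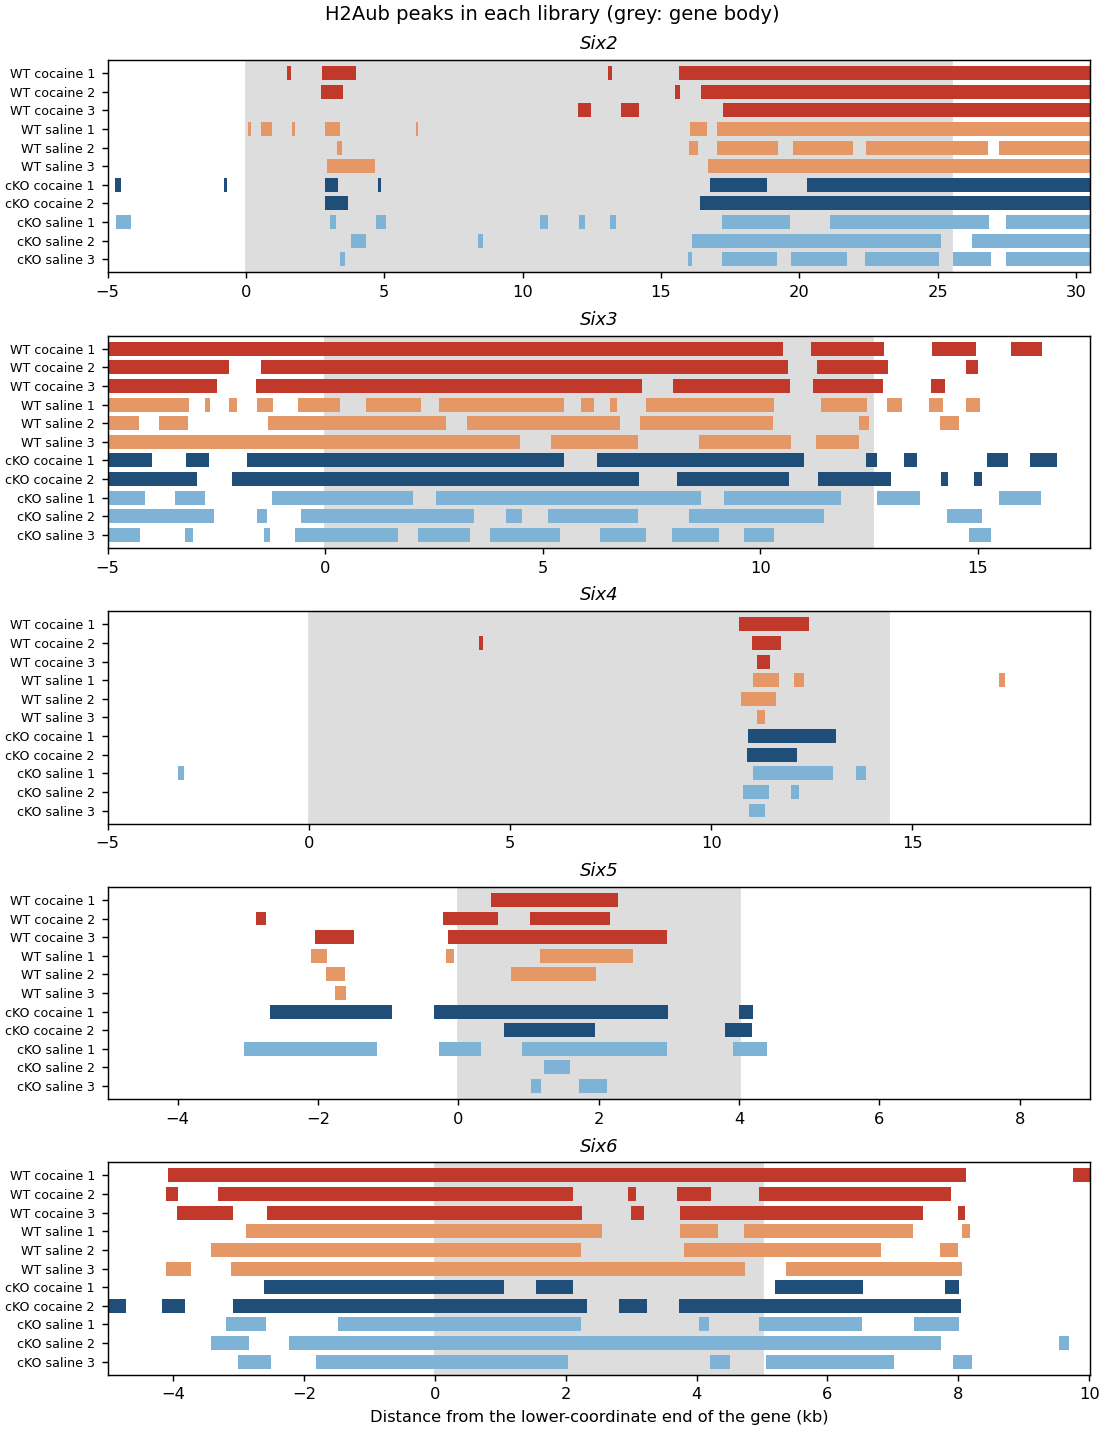
H2Aub peaks (coloured blocks) in each of the 11 libraries across the windows of Six2 to Six6, with the distance from the lower-coordinate end of the gene in kb on the x axis and the gene body in grey. Peaks covered 42.4 to 83.8% of the Six3 window, 38.7 to 82.9% of the Six6 window and most of the higher-coordinate side of Six2, while Six4 held a narrow peak at the same place in all 11 libraries and no base of Six5 was covered in more than 9.

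Six2 lies on chromosome 17 (mm10, chr17:85662736-85688254), and another gene, CJ186046Rik, has bases in its window. The H2Aub at Six2 lay mostly on the higher-coordinate side. Below the midpoint of the gene body a median of 6.32% of the bases was under peaks (range 1.35 to 13.7%), above the midpoint 69.9% (53.9 to 78.3%), and in the 5 kb beyond the higher end 100% (85.5 to 100%). The flank at the lower end had a peak in only 2 lists, cKO cocaine 1 and cKO saline 1. Peaks of all 11 libraries shared 8437 bp of the window (23.8%), and the longest shared stretches were chr17:85690219-85693254, beyond the gene, and chr17:85685147-85687800, inside it and ending 0.454 kb before the higher end. The reference table used here gives no strand, so which end holds the start site was not read from it. In 9 lists the window held a peak of 5 kb or more. In WT mice the widest peaks measured 16131, 14506 and 14354 bp under cocaine, against 13765, 4434 and 14321 bp under saline. In cKO mice they measured 10727 and 15538 bp under cocaine, against 5743, 9017 and 4110 bp under saline. WT saline 2 and cKO saline 3 were the lists without a 5 kb peak, and there the same region was broken into shorter peaks.

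Six3 (chr17:85613608-85626191) lies below Six2 on the same chromosome, with 36.5 kb between the gene bodies, and Six3os1 reaches into its window. Peaks lay on both sides of the midpoint of the gene in every list, and were sparser toward its higher end. A median of 91.7% of the bases below the midpoint of the body was under peaks (range 71.1 to 100%) and 75.6% of those above it (45.2 to 89.8%). The lower flank was 67.1% covered (35.2 to 100%), and the higher flank 15.0% (0 to 39.6%). The bases covered in all 11 libraries came to 4012 bp (17.8% of the window), with the longest stretch across the lower end of the gene (chr17:85613058-85613946). The 26544 bp between the Six3 and Six2 windows held peaks in every list but were covered to only 1.05 to 9.23% (median 5.62%), so the Six3 and Six2 domains were separate in all libraries. A peak of 5 kb or more was present at Six3 in 7 lists. In WT mice the widest peaks measured 18296, 12115 and 8870 bp under cocaine, against 2946, 4086 and 11329 bp under saline. In cKO mice they measured 7275 and 9340 bp under cocaine, against 6099, 3973 and 2356 bp under saline. All 5 cocaine lists held a 5 kb peak at Six3, against 2 of the 6 saline lists. In the saline lists without one, the window held 7 to 14 shorter peaks, which still covered 42.4 to 57.8% of it. Over the genome, peaks of 5 kb or more numbered 372, 281 and 242 under cocaine and 218, 125 and 213 under saline in WT, and 146 and 271 under cocaine and 100, 210 and 67 under saline in cKO, so wide peaks were also more numerous in every WT cocaine list than in the WT saline lists. Their part in the count at Six3 was not tested.

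Six6, a close relative of Six3 (chr12:72939882-72944899), has a gene body of only 5018 bp, and peaks lay within 1 kb of both ends in all 11 libraries. The median cover was 68.3% of the lower flank (41.8 to 81.6%), 89.7% of the body below its midpoint (64.6 to 100%), 48.1% above it (0 to 100%) and 51.2% of the higher flank (31.7 to 67.1%). Each list held peaks in both flanks, so the mark reached past the gene on either side. All libraries shared 4185 bp (27.9% of the window), the largest share among the 5 genes, and 2524 bp of it formed a stretch across the lower end (chr12:72938409-72940932). In WT mice the widest peaks measured 12196, 5421 and 4810 bp under cocaine, against 5443, 5653 and 7856 bp under saline. In cKO mice they measured 3654 and 5420 bp under cocaine, against 3713, 9957 and 3853 bp under saline. Of these, 7 reached 5 kb, and they were spread over all 4 groups.

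Six4 (chr12:73099609-73114031) carried a short region of H2Aub. A peak of 191 to 2195 bp lay over the same place in every list, and all 11 libraries shared 191 bp (chr12:73110756-73110946), within the gene body and 3.085 kb before its higher end. These 191 bp are the whole peak of WT saline 3, which had a q of 0.0809. Outside the higher-coordinate side of the body, Six4 had peaks in only 3 lists: WT cocaine 2 below the midpoint, cKO saline 1 in the lower flank, and WT saline 1 in the higher flank, each of 112 to 141 bp. Neither end of the gene lay in the marked region: within 1 kb of the lower end no list had a peak, and within 1 kb of the higher end only cKO saline 1 did. The body of Mnat1 overlaps the higher-coordinate end of Six4, beyond the shared region.

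Six5 (chr7:19094544-19098549) is a short gene between Dmpk and Bhmg1, whose bodies both reach into its window. In 10 of 11 lists a peak lay in the Six5 body, mostly below its midpoint, where the median cover was 64.5% (0 to 100%). No base was covered in more than 9 lists, and the longest stretch covered in 9 was 373 bp (chr7:19095766-19096138). In WT saline 3 the only peak in the window was 166 bp wide (chr7:19092779-19092944), in the flank and within the body of Dmpk. The cKO replicates 1 differed in layout from the other 9 lists: cKO cocaine 1 had 3 peaks and cKO saline 1 had 4, with 41.6 and 43.4% of the lower flank covered, against 0 to 14.0% elsewhere. Their covered lengths of 5279 and 5043 bp were the highest at Six5.

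Fold enrichment and covered length did not order the lists alike at every gene. In the cKO replicates 1 the highest fold enrichment of any peak in the window was 10.4 and 12.6 at Six2, 12.9 and 9.95 at Six3, 8.36 and 9.21 at Six6, 6.98 and 8.04 at Six5, and 4.84 and 5.26 at Six4. In the other 9 lists it was 4.44 to 5.65 at Six2, 3.82 to 4.84 at Six3, 4.32 to 5.86 at Six6, 3.14 to 4.54 at Six5 and 2.96 to 4.57 at Six4. These 2 lists thus held the peak of highest enrichment at all 5 genes. At Six3 it was 297 and 990 bp wide and lay beyond the gene, whereas the widest peaks had 5.35 and 5.99. At Six5 it was 207 and 482 bp wide and crossed the higher end, and the widest peaks had 4.73 and 7.34. At Six6 the widest peaks had 5.17 and 6.07. Covered length in these 2 lists was the lowest of the 11 at Six6 (5809 and 6764 bp). It was the highest at Six4 (2195 and 2373 bp) and Six5 (5279 and 5043 bp). Within its own list, ordered from the widest peak, the widest peak at Six2 ranked between 17 and 168, at Six3 between 46 and 456, at Six6 between 54 and 319, at Six5 between 386 and 9688, and at Six4 between 897 and 8894.

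**Figure D2:**
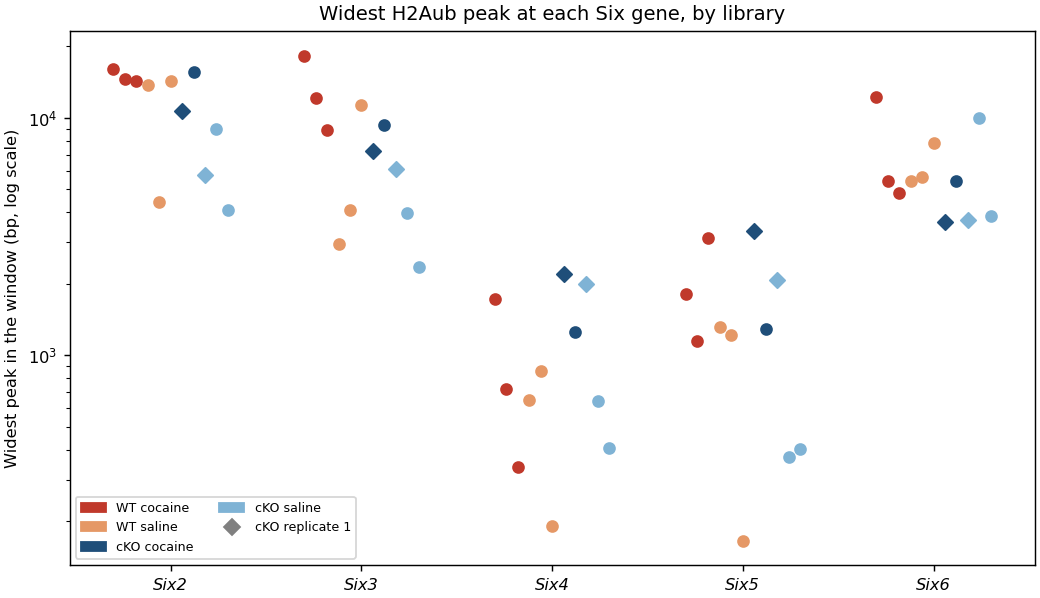
Width of the widest H2Aub peak in the windows of Six2 to Six6 (y axis, bp, log scale), with a point for each of the 11 libraries coloured by group and diamonds for the cKO replicates 1. Widths at Six2, Six3 and Six6 lie between 2356 and 18296 bp, and at Six4 and Six5 no library reaches 5 kb.

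The effect of cocaine was then examined in WT mice. In WT cocaine, 18922, 16813 and 15980 bp of the Six3 window were under peaks, whereas the WT saline libraries held 13063, 12689 and 14561 bp. All 3 cocaine libraries lay above all 3 saline libraries, and the mean of 17238 ± 1516 bp (SD, n = 3) was 1.28 times that of 13438 ± 991 bp (SD, n = 3). The difference was 3801 ± 1046 bp (SE, exact permutation test, two-sided, p = 0.10). That is the smallest p that 3 against 3 libraries allow, so that no comparison of this design could pass 0.05, and after Benjamini-Hochberg adjustment over the 20 comparisons (5 genes, 4 pairs of groups) the adjusted p was 0.824. Within the gene body the cover was 94.9, 94.7 and 90.0% in WT cocaine and 70.9, 75.9 and 76.0% in WT saline.

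Six5 was the other gene whose WT groups did not overlap, with 1806, 2066 and 3666 bp under cocaine and 1660, 1491 and 166 bp under saline. The lowest cocaine library was only 146 bp above the highest saline library. The difference was 1407 ± 749 bp (SE, ratio 2.27, exact permutation p = 0.10, adjusted p = 0.824). It fell to 830 bp without WT cocaine 3 and to 937 bp without WT saline 3 (exact permutation p = 0.30 in both).

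The other 3 genes overlapped between the WT groups. Six2 had 16372, 15041 and 14372 bp under cocaine and 15363, 12529 and 15557 bp under saline, a difference of 779 ± 1142 bp (SE, exact permutation p = 0.70). Six6 had 12456, 9190 and 9694 bp against 8741, 8938 and 10922 bp, a difference of 913 ± 1231 bp (SE, exact permutation p = 0.50). Six4 had 1733, 835 and 340 bp against 1023, 863 and 191 bp, a difference of 277 ± 481 bp (SE, exact permutation p = 0.70). These differences were within the spread between libraries. Each of them turned negative when a single library was left out, namely Six2 without WT saline 2 (−198 bp), Six6 without WT cocaine 1 (−91.7 bp) and Six4 without WT cocaine 1 (−105 bp).

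Six3 and Six5 were then set against all coding genes. Covered length was higher in every WT cocaine list than in every WT saline list at 5.81% of the 21887 coding genes and lower at 0.11%. Among the 1479 genes with a peak in all 11 lists, the kind to which Six2 to Six6 belong, the share that was higher was 33.3%, and the 2 of 5 genes here are to be set beside that share. The lists themselves moved the same way, with 17.2, 15.0 and 10.4 Mb under peaks in WT cocaine and 11.1, 5.55 and 8.41 Mb in WT saline. With equal peak numbers, Six3 still did not overlap (difference 4072 bp, exact permutation p = 0.10), with 15676 to 18222 bp in WT cocaine against 10969 to 14561 bp in WT saline. At Six5 the groups then overlapped (difference 276 bp, exact permutation p = 0.70), since WT cocaine 3 kept no peak there. The background at equal peak numbers was 3.01% of all coding genes, 26.8% of the 1479 genes with a peak in all 11 lists, and 28.3% of the 357 that, like Six3, still had a peak in all 11 lists after the reduction. Divided by the total length under peaks in its list, Six3 was lower in WT cocaine, at 1253 against 1731 bp per Mb, with overlapping groups (exact permutation p = 0.20). The direction at Six3 thus depended on whether the covered length was taken as it was or as a share of its list.

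**Figure D3:**
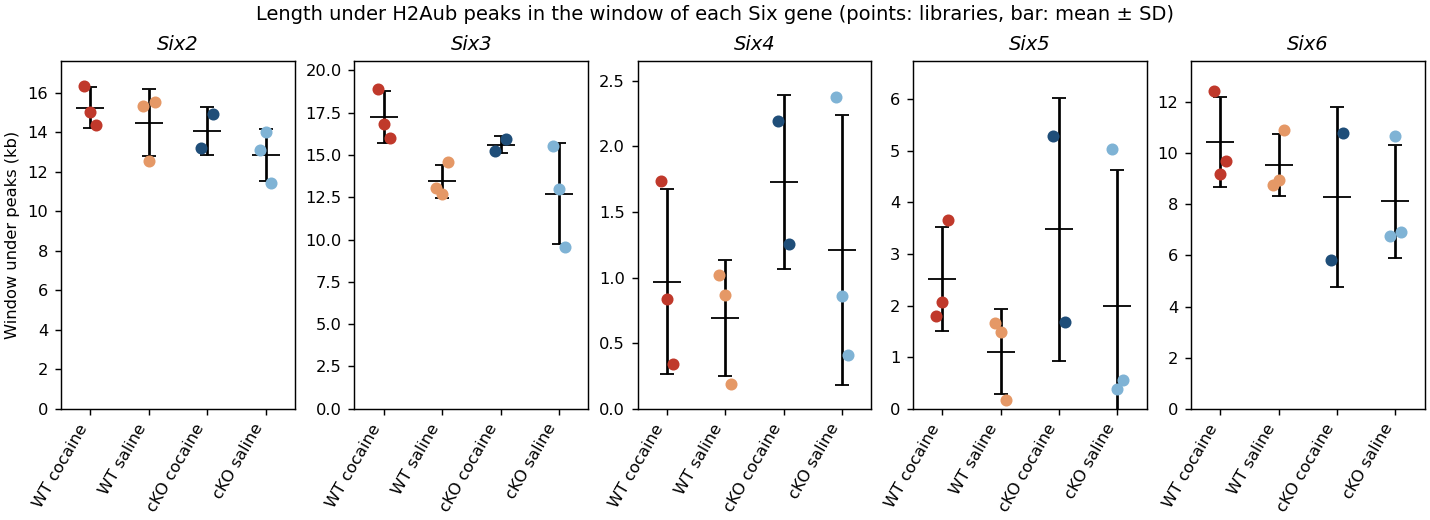
Length under H2Aub peaks (y axis, kb, from 0) in the windows of Six2 to Six6 in the 4 groups, with a point for each library, a horizontal bar for the mean and error bars for the SD, which for Six5 in cKO saline runs below the axis. In WT mice the points of cocaine and saline are apart at Six3 and Six5 and overlap at Six2, Six4 and Six6.

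In cKO mice none of the 5 genes separated cocaine from saline. Six3 had 15257 and 15974 bp in cKO cocaine and 15524, 12995 and 9574 bp in cKO saline. The difference of 2918 ± 1761 bp (SE, exact permutation p = 0.30) had the sign seen in WT, and the groups overlapped through cKO saline 1 alone. It fell to 1356 bp without cKO saline 3 and to 190.5 bp with equal peak numbers (exact permutation p = 1), where the cKO replicates 1 kept only 297 and 990 bp. Six2 had 13220 and 14945 bp in cKO cocaine against 13102, 14018 and 11448 bp in cKO saline, a difference of 1227 ± 1144 bp (SE, exact permutation p = 0.40). At Six6 the libraries held 5809 and 10780 bp against 6764, 10681 and 6899 bp, a difference of 180 ± 2797 bp (SE, exact permutation p = 0.90). Libraries of the same group thus differed more at Six6 than the group means did.

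Six4 had 2195 and 1256 bp in cKO cocaine and 2373, 856 and 408 bp in cKO saline, a difference of 513 ± 758 bp (SE, exact permutation p = 0.60). Six5 had 5279 and 1679 bp against 5043, 373 and 550 bp, a difference of 1490 ± 2361 bp (SE, exact permutation p = 0.50). At both genes replicate 1 was the highest of its group. Without both cKO replicates 1, which leaves 1 cocaine library and no test, the differences were 4690 bp at Six3, 2212 bp at Six2, 1990 bp at Six6, 1218 bp at Six5 and 624 bp at Six4. Covered length was higher in every cKO cocaine list than in every cKO saline list at 2.52% of coding genes and lower at 0.0503%, and at none of the 5 genes in either direction.

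To ask whether cocaine acted differently in WT and cKO mice, treatment labels were permuted inside each genotype, in all 200 arrangements. The WT effect minus the cKO effect was 883 bp at Six3 (exact permutation p = 0.795), 733 bp at Six6 (exact permutation p = 0.755), −83.3 bp at Six5 (exact permutation p = 0.985), −236 bp at Six4 (exact permutation p = 0.80) and −448 bp at Six2 (exact permutation p = 0.795). The adjusted p over these 5 tests was 0.985 at every gene. Without both cKO replicates 1, which leaves 1 cKO cocaine library and no test, the sign changed at Six3 (−889 bp), Six6 (−1077 bp) and Six5 (189.5 bp), and the values were −1433 bp at Six2 and −347 bp at Six4. With spreads of this size the test does not show that the effects were alike.

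The genotypes were then compared within each treatment, using the same libraries as above. Under saline, cKO minus WT was −1627 ± 1234 bp at Six2 (SE, exact permutation p = 0.30), −1419 ± 1461 bp at Six6 (exact permutation p = 0.30) and −740 ± 1816 bp at Six3 (exact permutation p = 0.80). It was positive at the narrowly marked genes, with 520 ± 647 bp at Six4 (SE, exact permutation p = 0.60) and 883 ± 1599 bp at Six5 (exact permutation p = 0.80). All 5 genes overlapped between the saline groups. Without cKO saline 1 the differences were −1750 bp at Six2, −2153 bp at Six3, −744 bp at Six6, −60.3 bp at Six4 and −644 bp at Six5, so that the sign changed at the last 2 genes. Without cKO saline 3 the difference at Six3 became 822 bp. Among coding genes, 0.329% were higher and 0.37% lower in every cKO saline list.

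Under cocaine, Six3 was lower in both cKO libraries than in the 3 WT libraries, but only by 6 bp at the nearest pair (15974 against 15980 bp). The difference was −1623 ± 946 bp (SE, exact permutation p = 0.20, adjusted p = 0.824). The Six3 groups overlapped at equal peak numbers (difference −8768 bp, with 297 bp in cKO cocaine 1, exact permutation p = 0.20), with 10 kb flanks (exact permutation p = 0.40) and per Mb covered (exact permutation p = 0.60), and stayed apart with q at most 0.05. The other differences were −1179 ± 1044 bp at Six2 (SE, exact permutation p = 0.40), −2152 ± 2685 bp at Six6 (exact permutation p = 0.50), 756 ± 622 bp at Six4 (exact permutation p = 0.40) and 966 ± 1892 bp at Six5 (exact permutation p = 0.70), all with overlapping groups. Without cKO cocaine 1, which leaves 1 cKO library, they were −317 bp at Six2, −1264 bp at Six3 and 287 bp at Six4, and the sign changed at Six6 (333 bp) and Six5 (−834 bp). Per Mb covered, the groups separated at Six4, with 109 bp per Mb in cKO cocaine against 63.0 in WT cocaine (exact permutation p = 0.20). Covered length was lower in every cKO cocaine list than in every WT cocaine list at 1.77% of coding genes and higher at 3.6%.

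Genes that work with or resemble these 5 were set beside them. Of the partner genes, 2 of 6 had a peak in all 11 lists, Eya2 and Eya4, and 4 had one in at least 6 lists. Their windows were covered to a median of 0.0956%, with 1.71% at Eya2, 0.834% at Eya4, 0.106% at Dach1 and 0.0848% at Eya1, while Eya3 had a peak in 1 list and Dach2 in 2. Eya3 and Dach2 had their peaks in the cKO replicates 1 only. The Dlx and Gsx homeobox genes, some of which (Dlx1, Dlx2, Gsx2) are known as regulators of forebrain GABA neurons, had peaks in all 11 lists at 8 of 8 genes with medians of 42.3 to 95.8%, and the Iroquois homeobox genes at 6 of 6 with 19.8 to 67.5%. Six6 and Six2 lay within the range of the Iroquois genes, Six3 lay at its upper edge, and Six4 and Six5 lay below the lowest median of either set. Long genes have a low share of the window for the same covered length, and in bases Eya2 had a median of 3199 bp and Eya4 of 2151 bp, more than Six4 (863 bp) and Six5 (1679 bp).

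**Figure D4:**
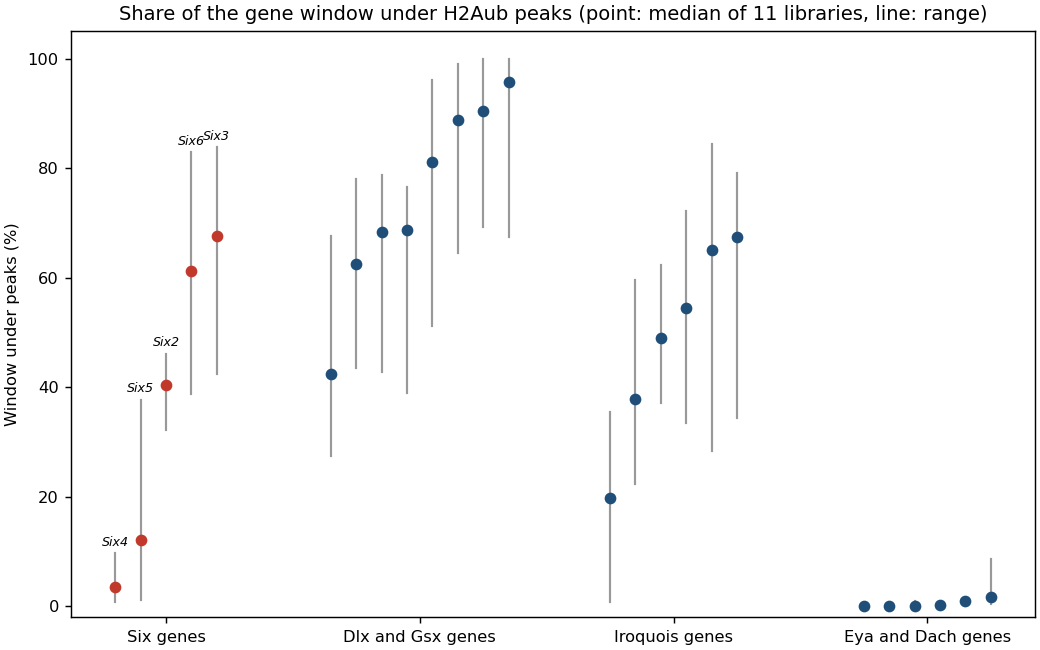
Share of the gene window under H2Aub peaks (y axis, %), with the median of 11 libraries as a point and the range as a line, for Six2 to Six6, the Dlx and Gsx genes, the Iroquois genes, and the Eya and Dach genes. Six3, Six6 and Six2 have medians of 40.5 to 67.6%, and every Eya and Dach gene has a median below 2%.

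The surroundings of the 5 genes differed. Apart from each other, Six2 and Six3 had no coding gene within 100 kb. Around Six5 there were 13, of which 4 had a peak in at least 6 lists and 1, Dmpk, in all 11. The bodies of Dmpk (11 lists, median 8.32%) and Bhmg1 (10 lists, median 5.55%) share bases of the Six5 window. Peaks in the shared bases cannot be assigned to a single gene. The longest Six5 stretch covered in 9 lists lies outside both bodies, but the windows of both genes take it in. Of the neighbours of Six5 outside its window, Foxa3 and Sympk had peaks in 6 lists and the others in 1 to 4. Of the 2 coding genes near Six4, both had a peak in all 11 lists, and of the 2 near Six6, 1 did, while 4930447C04Rik had a peak in 5. The window of Mnat1, which overlaps Six4, takes in the stretch of Six4 shared by all lists. The median covered length was 863 bp at both genes, so the count at Mnat1 is not separate from that at Six4.

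For each of the 5 genes, the 3 coding genes over 100 kb away whose share of the window under peaks varied most alike over the 11 lists were taken from the 4633 genes with a peak in at least 6 lists. These were Lhx8, Prdm8 and Nkx2-1 for Six2 (Pearson r of 0.965 to 0.973) and Hoxc13, Gata4 and Gfi1 for Six6 (0.939 to 0.948). For Six3 they were Ap5b1, Ccnd1 and Prdm16 (0.941 to 0.953), for Six4 Rnf220, Rgma and Scube2 (0.946 to 0.960), and for Six5 Rasgrp4, Gpr179 and Ptpru (0.958 to 0.977). Over the 9 lists without the cKO replicates 1, r for the same genes was 0.964 to 0.980 with Six2, 0.945 to 0.965 with Six3, 0.849 to 0.885 with Six4, 0.867 to 0.987 with Six5 and 0.894 to 0.916 with Six6. These r values describe lists that share their length and depth with every gene, and each was picked as among the highest of 4633 genes.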

How the data were processed

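Adapter trimming (Cutadapt, version 3), mapping of read pairs to mm10 (Bowtie2, version 2.3.4.1) and broad peak calling against total input (MACS2, version 2.1.1.20160309.3) were done by the authors for each library, without pooling replicates. SAMtools (version 1) is also named in the submitters' processing notes. Each deposited list gave peak positions, a score (10 times the −log10 q, decimals dropped), the fold enrichment over input as a linear ratio, and, per peak, a −log10 p and a −log10 q. The deposited lists held no read counts, so depth was neither known nor corrected for.

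Autosomal, X and Y peaks were joined by position to a GRCm38.p6 gene table (mm10 coordinates, no strand, 21887 coding genes), printed 1-based. Covered length, widest peak and fold enrichment were computed per window and library. Two-sided exact permutation tests compared group means over 20 comparisons with Benjamini-Hochberg adjustment. The code was tested on simulated peaks in 2000 windows. Alternatives were q at most 0.05, equal peak numbers, 10 kb flanks, bp per Mb covered, a 50% overlap, leaving out libraries and a replicate block. Genes named are the 5 members, their Eya and Dach partners, coding neighbours within 100 kb and the 3 most alike genes per member. The members and lists were chosen with earlier results of these data known. Python 3.11.15, numpy 2.4.6, scipy 1.17.1 and matplotlib 3.10.9 were used.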

Additional observations from a re-analysis of the deposited data

How the results depend on the processing

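Of 305 alternative values of the covered length differences, 250 kept the direction of the reported value and 55 changed it, and no p in any of them was below 0.05, a level that comparisons of 2 groups could not reach. With q at most 0.05, none of the 25 differences changed direction. Divided by the Mb covered in the list, cocaine minus saline was negative in WT at Six2 (−718 bp per Mb), Six3 (−478), Six4 (−27.1) and Six6 (−476) and in cKO at Six2 (−681), Six3 (−424) and Six6 (−464), cKO minus WT under saline at Six5 was −25.5, and the WT effect minus the cKO effect was −54.4 at Six3 and −11.1 at Six6. With equal peak numbers, cocaine minus saline in cKO was −194 bp at Six5 and −322 bp at Six6, cKO minus WT under cocaine was −63 bp at Six4 and −451 bp at Six5, and the WT effect minus the cKO effect was 310 bp at Six2, 404 bp at Six4 and 469.5 bp at Six5. With 10 kb flanks the last of these was 36.8 bp. At equal peak numbers Six4 had a peak in 6 lists and Six5 in 8. Without both cKO replicates 1, cKO minus WT under saline was −60.3 bp at Six4 and −644 bp at Six5, under cocaine −834 bp at Six5 and 333 bp at Six6, and the WT effect minus the cKO effect was −889 bp at Six3, 189.5 bp at Six5 and −1077 bp at Six6.

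With 1 library left out at a time, which leaves 1 cKO cocaine library where that group is reduced, cocaine minus saline in WT ran from −198 to 1316 bp at Six2, from −105 to 592 bp at Six4 and from −91.7 to 1607 bp at Six6. At Six3 it stayed between 2959 and 4430 bp and at Six5 between 830 and 1760 bp. In cKO it ran from 364 to 2089 bp at Six2, from 1356 bp (without cKO saline 3) to 4331 bp (without cKO saline 1) at Six3, from 43.7 bp (without cKO cocaine 1) to 1094 bp at Six4, from −310 bp (without cKO cocaine 1) to 3290 bp at Six5 and from −2306 bp (without cKO cocaine 2) to 2665 bp (without cKO cocaine 1) at Six6. Under saline, cKO minus WT ran from −2604 to −923 bp at Six2, from −2702 to −725 bp at Six6, from −2153 to 822 bp at Six3, from −60.3 to 922 bp at Six4 and from −644 to 1691 bp at Six5, and under cocaine from −2042 to −317 bp at Six2, from −2252 to −781 bp at Six3, from 287 to 1226 bp at Six4, from −834 to 2766 bp at Six5 and from −4638 to 333 bp at Six6. The WT effect minus the cKO effect ran from −1425 to 415 bp at Six2, −530 to 2445 bp at Six3, −817 to 233 bp at Six4, −1883 to 1717 bp at Six5 and −1752 to 3219 bp at Six6.

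Among all coding genes, equal peak numbers changed the number of non-overlapping genes from 1272 to 659 (higher in WT cocaine than WT saline), 24 to 58 (lower), 551 to 129 (higher in cKO cocaine than cKO saline), 11 to 65 (lower), 787 to 174 (higher in cKO cocaine than WT cocaine), 388 to 757 (lower) and 81 to 337 (lower in cKO saline than WT saline), and q at most 0.05 changed 11 to 6 (lower in cKO cocaine than cKO saline). The cause of these changes was not tested. Libraries of different groups share replicate numbers, but over all genes the deviations of same-numbered WT libraries correlated at −0.109 to 0.373, those of the saline groups of the 2 genotypes at −0.457 to 0.296 and those of the cocaine groups at −0.302 to −0.263. In cKO they correlated at 0.612 and 0.673, but over only 2 pairs, and the numbers were not taken as pairs. The deviations of the 2 cKO cocaine libraries mirror each other. Any library's correlation with cKO cocaine 1 therefore had the same size and the opposite sign with cKO cocaine 2. As a replicate block the difference at Six3 in WT was 3801 bp (exact sign-flip permutation p = 0.25, the smallest that 3 pairs allow), and at Six6 cocaine minus saline in cKO became −428 bp, the value also found without cKO saline 3, which has no partner and drops out of the block. No other direction changed.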
